A study of Mus musculus with 60 samples.

Results

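Ttr and Trp73 were followed as a pair of genes, 2 of the 770 measured, that mark the lining of the brain ventricles: Ttr the epithelium of the choroid plexus, and Trp73 the ciliated ependyma. The pair was chosen from earlier results of these data, in which both genes spread widely and moved together between samples, so the spread and the covariation given here are descriptions and carry no test. The samples were RNA from the hippocampus, hypothalamus and brain stem of 20 female Balb/C mice, which were 13 weeks old at collection. The mice had received 67NR cells, a mammary carcinoma line that does not metastasize, or DMEM vehicle into the mammary glands, and tissue was taken 25 days later at mid-dark (ZT19, where ZT counts hours from lights on) or mid-light (ZT7). Each of the 4 groups held 5 mice. Expression was read on nanoString's nCounter Mouse Neuroinflammation Panel, an assay that counts hybridised probes without amplification. The values are log2 of counts that the authors normalized, so a difference of 1 is a doubling, and values of different probes cannot be set against each other as amounts of RNA. Of 60 listed samples 56 had values: 20 of hippocampus, 17 of hypothalamus and 19 of brain stem. The missing 4 were all from vehicle injected mice, which left 3 mice in the mid-dark and 4 in the mid-light vehicle group of the hypothalamus and 4 in the mid-dark vehicle group of the brain stem. Of the markers of hippocampal and cortical neurons, Nrgn and Tbr1 were higher in every hippocampus sample (at least 13.22 and 7.63) than in any hypothalamus (at most 10.69 and 5.98) or brain stem sample (at most 10.30 and 5.42). Camk4 separated hippocampus (at least 10.53) from hypothalamus (at most 9.58) but not from brain stem. Reln and Eomes did not separate the regions. Camk4 reached 11.26 and Reln 9.78 in brain stem, against at most 10.92 and 9.49 in hippocampus. Eomes reached 7.65 in brain stem, against at most 6.69 in hippocampus.

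Ttr encodes transthyretin, a carrier of thyroxine and of retinol bound to its binding protein. In the brain it is made chiefly by choroid plexus epithelium, the sheet of cells that secretes cerebrospinal fluid inside the ventricles, and from there transthyretin passes into the fluid. Trp73 encodes p73, a transcription factor of the p53 family. Its longer isoforms drive the formation of motile cilia in multiciliated cells, ependyma among them, and its shorter isoforms, which lack the transactivation domain, are found in Cajal-Retzius cells, early neurons that persist in the hippocampus near its fissure. In bulk tissue a lower value can come from fewer cells of a type or from less RNA per cell, and these cannot be told apart.

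Trp73 lies on the minus strand of mouse chromosome 4, from 154056249 to 154139875 in the RefSeq annotation of build GRCm38.p6, a span of 83627 bases. Its 3 curated transcripts start at 2 sites 42702 bases apart. The panel gives 1 value per gene, so RNA from these starts was not separated. The 100 bases before each start are shown because they are the regulatory sequence nearest to the transcripts that this value pools. They are written 5′ to 3′ on the transcribed strand, with the TATA-like letters in capitals.
Trp73 upstream start, chr4:154139876-154139975: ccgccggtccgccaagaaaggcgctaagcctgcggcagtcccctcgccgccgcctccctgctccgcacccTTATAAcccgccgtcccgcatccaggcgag
Trp73 internal start, chr4:154097174-154097273: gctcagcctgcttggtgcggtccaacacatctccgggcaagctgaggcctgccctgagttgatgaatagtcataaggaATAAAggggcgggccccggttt
The capitals before the upstream start hold TATAA, whose first letter lies at position -29 from the start, overlapped by the same motif on the opposite strand (TTATA, at -30). Those before the internal start hold ATAAA, at position -22. Over 32851 RefSeq windows of the same length, 7.48% held TATAA on the transcribed strand and 10.2% on either strand, and 11% and 17.5% held ATAAA. These are matches of letters only.

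Ttr was high and very uneven in hippocampus and brain stem, and low and even in hypothalamus. In hippocampus it averaged 11.69 ± 3.01 (SD, n = 20) and ran from 5.36 to 14.71, a 656-fold range on the linear scale. In brain stem it averaged 10.73 ± 2.67 (SD, n = 19) and ran from 6.49 to 13.77, a 155-fold range. In hypothalamus it averaged 4.97 ± 0.28 (SD, n = 17), and its highest value, 5.34, lay just below the lowest hippocampus value and well below every brain stem sample.

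Trp73 covered a much narrower range. It averaged 6.71 ± 0.32 (SD, n = 20) in hippocampus, 5.03 ± 0.45 (SD, n = 19) in brain stem and 5.47 ± 0.31 (SD, n = 17) in hypothalamus. A level to read the low values against comes from Uty and Kdm5d, Y-linked genes that female mice lack. Uty was listed at a mean of 2.97 in hippocampus, 4.86 in brain stem and 3.94 in hypothalamus. In brain stem the range of Trp73 (4.04 to 5.67) thus spanned that of Uty (4.33 to 5.09), while in hippocampus every Trp73 value lay above the highest Uty value of 4.88. Ttr in hypothalamus (4.33 to 5.34) overlapped the range of Uty there (3.30 to 4.52) at its low end, but lay above that of Kdm5d (2.59 to 4.27). How much of such low values is probe background was not tested.

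**Figure D1:**
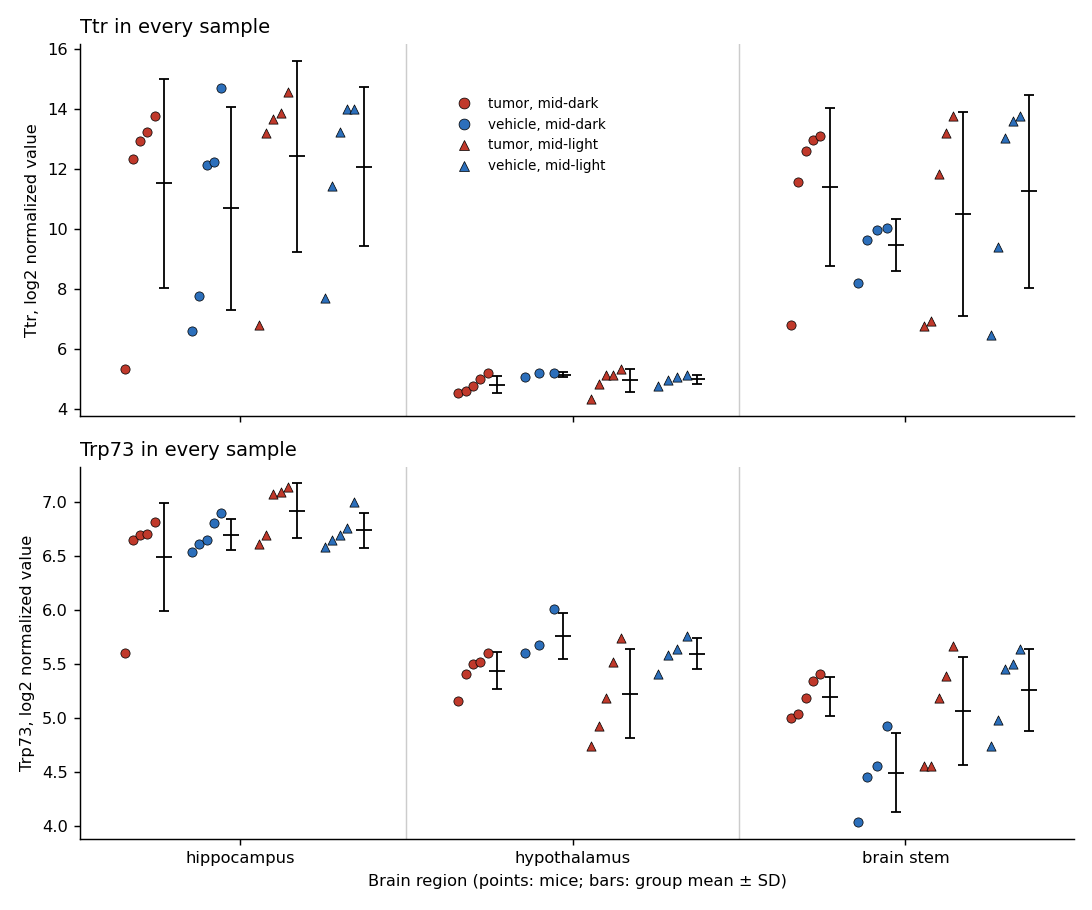
Log2 normalized values of Ttr (upper panel) and Trp73 (lower panel) in each of the 56 samples, by region and group; each point is 1 mouse and the bars are the group mean ± SD (n = 3 to 5). Ttr spread over 5.36 to 14.71 in hippocampus and 6.49 to 13.77 in brain stem but only 4.33 to 5.34 in hypothalamus, and the vertical axes differ between the panels.

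The spread of Ttr within groups exceeded that of every other gene in hippocampus and in brain stem. Its within-group SD was 3.19 in hippocampus, where the median over all genes was 0.18. In brain stem its SD was 2.80 against a median of 0.16. Genes of the same level did not spread alike: the 46 genes within 0.5 of the mean of Ttr in hippocampus had a median SD of 0.10 and at most 0.29. In hypothalamus Ttr ranked 212th of 770, with an SD of 0.28. Trp73 ranked 173rd in hippocampus (SD 0.30), 226th in hypothalamus (0.27) and 80th in brain stem (0.38). Genes within 0.5 of its level had a median SD of 0.18, 0.30 and 0.28 in these regions.

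The hippocampus values of Ttr fell into separate sets. In 15 samples Ttr was at 11.46 or above, in the other 5 it was at 7.78 or below, and no sample lay in the 3.68 between. The low 5 came from every group: mouse 7 of the tumor mid-dark group, mouse 13 of the tumor mid-light group, mice 12 and 28 of the vehicle mid-dark group and mouse 6 of the vehicle mid-light group. In brain stem the widest gap was narrower, 1.54, with 9 samples at 10.05 or below and 10 at 11.59 or above.

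In the hippocampus of tumor-bearing mice at mid-dark, Ttr was at 13.25, 5.36, 12.36, 12.94 and 13.77 in mice 3, 7, 11, 19 and 23. In the vehicle injected mice at mid-dark it was at 14.71, 12.14, 7.78, 6.62 and 12.25 in mice 4, 8, 12, 28 and 32. Both groups thus held samples on either side of the gap. At mid-light it was at 13.22, 13.68, 14.58, 6.82 and 13.90 in tumor-bearing mice 1, 5, 9, 13 and 29. In vehicle injected mice 2, 6, 10, 22 and 30 it was at 14.01, 7.71, 14.01, 11.46 and 13.25. The groups overlapped in both phases.

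Trp73 in the same hippocampus samples stayed near 6.7. At mid-dark it was at 6.70, 5.60, 6.82, 6.69 and 6.65 in the tumor-bearing mice, in the same order. In the vehicle injected mice it was at 6.90, 6.81, 6.65, 6.61 and 6.54. The lowest value of all, 5.60, belonged to mouse 7, which also had the lowest Ttr. At mid-light Trp73 was at 7.09, 6.69, 7.14, 6.61 and 7.08 in the tumor-bearing and at 7.01, 6.69, 6.58, 6.65 and 6.77 in the vehicle injected mice. The 3 highest values were from tumor-bearing mice at mid-light, but the other 2 mice of that group lay within the vehicle range.

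The hippocampus sample of mouse 7 also differed from the rest in some neuron genes. Nrgn did not, at 13.41 against a hippocampus median of 13.45. Tbr1 (8.94, next highest 8.49), a transcription factor of cortical and hippocampal projection neurons, and Reln (9.49, next highest 8.92), which encodes the Cajal-Retzius signal reelin, were at their highest there. Camk4, a kinase of neurons, was also highest, by little (10.92, next highest 10.90). The part of this in the low Ttr and Trp73 was not tested.

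In brain stem at mid-dark, Ttr was at 12.62, 11.59, 12.97, 13.11 and 6.81 in tumor-bearing mice 3, 7, 11, 19 and 23. In vehicle injected mice 4, 12, 28 and 32 it was at 9.66, 10.05, 8.21 and 9.99. Of the tumor-bearing mice 4 lay above all 4 vehicle injected mice and 1 lay below them all. At mid-light it was at 13.22, 11.86, 6.78, 6.96 and 13.77 in tumor-bearing mice 1, 5, 9, 13 and 29 and at 9.42, 6.49, 13.61, 13.04 and 13.77 in vehicle injected mice 2, 6, 10, 22 and 30. Both mid-light groups covered nearly the whole range.

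Trp73 in brain stem at mid-dark was at 5.18, 5.00, 5.41, 5.34 and 5.04 in the tumor-bearing mice, in the same order. In the vehicle injected mice it was at 4.92, 4.55, 4.04 and 4.46, so the groups did not overlap. At mid-light it was at 5.67, 5.18, 4.55, 4.55 and 5.39 in the tumor-bearing mice and at 4.98, 4.75, 5.45, 5.64 and 5.50 in the vehicle injected mice, and there the groups overlapped. The lowest mid-dark tumor value exceeded the highest vehicle value by less than the spread within either group. In brain stem at mid-dark, 2.34% of 769 genes had groups that did not overlap, counting both directions.

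In hypothalamus every Ttr value lay within about 1 log2 unit. At mid-dark Ttr was at 4.78, 4.60, 5.01, 5.20 and 4.55 in tumor-bearing mice 3, 7, 11, 19 and 23 and at 5.08, 5.20 and 5.20 in vehicle injected mice 4, 8 and 28. At mid-light it was at 4.33, 5.16, 5.34, 5.16 and 4.83 in tumor-bearing mice 1, 5, 9, 13 and 29 and at 4.98, 5.14, 4.79 and 5.08 in vehicle injected mice 2, 6, 22 and 30. The groups overlapped in both phases. Trp73 there was at 5.41, 5.50, 5.60, 5.16 and 5.52 at mid-dark in the tumor-bearing mice, and at 5.67, 5.60 and 6.01 in the vehicle injected mice. At mid-light it was at 4.75, 5.74, 5.52, 4.92 and 5.18 in the tumor-bearing and at 5.64, 5.76, 5.41 and 5.59 in the vehicle injected mice. The vehicle injected mice sat in the upper part of the range in both phases, with at least 1 tumor-bearing mouse level with or above the lowest of them.

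The order of the regions differed between the genes. For Ttr it was hippocampus and brain stem, which did not differ beyond their spread, and then hypothalamus. Ttr was higher in hippocampus than in hypothalamus in 17 of 17 mice with both samples, by 6.68 (SE 0.77, adjusted p = 1.02e-10, limma with the mouse as a block), and higher in brain stem than in hypothalamus in 16 of 16 mice, by 5.67 (SE 0.78, adjusted p = 1.42e-08, limma). Hippocampus exceeded brain stem in only 10 of 19 mice. The difference there was 1.01, with a 95% interval from -0.47 to 2.49 (adjusted p = 0.209, limma).

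For Trp73 the order was hippocampus, then hypothalamus, then brain stem. It was higher in hippocampus than in hypothalamus in 17 of 17 mice, by 1.21 (SE 0.10, adjusted p = 3.87e-15, limma), and than in brain stem in 19 of 19 mice, by 1.71 (SE 0.096, adjusted p = 1.60e-21, limma). Brain stem lay below hypothalamus by a smaller step, -0.50 (SE 0.10, adjusted p = 3.14e-05, limma), and 4 of 16 mice had the opposite order. Uty, which these mice lack, was listed higher in brain stem than in hypothalamus, the reverse of Trp73.

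Differences between regions were common on this panel. Of all genes 71.7% passed the same test between hippocampus and hypothalamus, 76.6% between hippocampus and brain stem and 66.5% between brain stem and hypothalamus. The limma model assumes 1 spread for all regions, which Ttr does not have. A permutation test that flips the sign of each mouse's difference, two-sided, makes no such assumption. This permutation test gave an adjusted p of at most 0.03136, adjusted over the 6 comparisons, for each pair of regions except hippocampus and brain stem in Ttr (permutation p = 0.2411).

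Tumor status and phase did not move either gene past the threshold of an adjusted p of 0.05 in any region (limma). Over 2 genes, 3 regions and 5 contrasts, 0 of 30 tests passed, and 4 had an unadjusted p under 0.05, all 4 of them in Trp73. The 5 contrasts were tumor minus vehicle at mid-dark, at mid-light and averaged over both phases, the interaction of tumor and phase, and mid-dark minus mid-light. Few genes of the panel passed the tumor contrasts. In that order the shares of genes called were 0.13%, 0.13%, 0.52%, 0% and 5.59% in hippocampus. In hypothalamus they were 0%, 0%, 0.26%, 0% and 2.34%. In brain stem they were 0.26%, 0.78%, 1.04%, 0% and 4.94%. The interaction had 47 genes in hippocampus, 28 in brain stem and 20 in hypothalamus with an unadjusted p under 0.05, and in hypothalamus the mid-dark and mid-light tumor contrasts had 37 and 40.

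For Ttr the wide spread left wide intervals in hippocampus and brain stem. In hippocampus the tumor-bearing mice differed from vehicle by 0.59 over both phases, with a 95% interval from -2.22 to 3.41 (adjusted p = 0.965, limma), and mid-dark differed from mid-light by -1.15, from -3.96 to 1.67 (adjusted p = 0.719, limma). In brain stem the tumor difference was 1.94 at mid-dark, from -1.73 to 5.61 (adjusted p = 0.968, limma), and -0.75 at mid-light, from -4.21 to 2.71 (adjusted p = 1, limma). With 1 mouse left out, the hippocampus values ranged from 0.046 to 1.36 for tumor status and from -1.85 to -0.37 for phase. A change of 1 log2 unit in either direction was therefore not detectable with these mice. In hypothalamus, where Ttr was low and even, the intervals were narrow: the tumor difference over both phases was -0.18, from -0.46 to 0.10 (adjusted p = 0.788, limma), and the phase difference 0.01, from -0.27 to 0.29.

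For Trp73 the largest tumor difference was in brain stem at mid-dark, where the 5 tumor-bearing mice all lay above the 4 vehicle injected mice. The difference was 0.70 (SE 0.24, 95% interval 0.21 to 1.20), with an unadjusted p of 0.00829 and an adjusted p of 0.403 (limma). RNA purity also differed between these samples: the ratio of absorbance at 260 and 280 nm was 1.34, 1.82, 1.99, 1.47 and 1.68 in tumor-bearing mice 3, 7, 11, 19 and 23 and 1.95, 1.99, 2.01 and 1.96 in vehicle injected mice 4, 12, 28 and 32, so 4 of the 5 tumor-bearing mice lay below all 4 vehicle injected mice. Its part in the difference was not tested. In that comparison 12 of 769 genes, or 1.56%, had all tumor-bearing above all vehicle injected mice, and 7.28% had an unadjusted p under 0.05. At mid-light the difference was -0.19, from -0.66 to 0.28 (adjusted p = 1, limma), and the interaction, which uses the same mice, was 0.90, from 0.21 to 1.58 (unadjusted p = 0.0131, adjusted p = 0.916, limma). For Ttr in the same samples the differences were 1.94 (mid-dark) and -0.75 (mid-light).

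In hypothalamus the means of Trp73 were lower in tumor-bearing than in vehicle injected mice in both phases. The difference was -0.32 at mid-dark, -0.37 at mid-light and -0.35 over both, with a 95% interval from -0.62 to -0.08. Its unadjusted p was 0.0153 and its adjusted p 0.365 (limma), in a contrast in which 7.14% of genes had an unadjusted p under 0.05. In hippocampus the difference over both phases was -0.01, from -0.28 to 0.26 (adjusted p = 0.988, limma). The phase difference of Trp73 was -0.23 in hippocampus, -0.32 in brain stem and 0.19 in hypothalamus (adjusted p of 0.339, 0.354 and 0.602, limma).

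**Figure D2:**
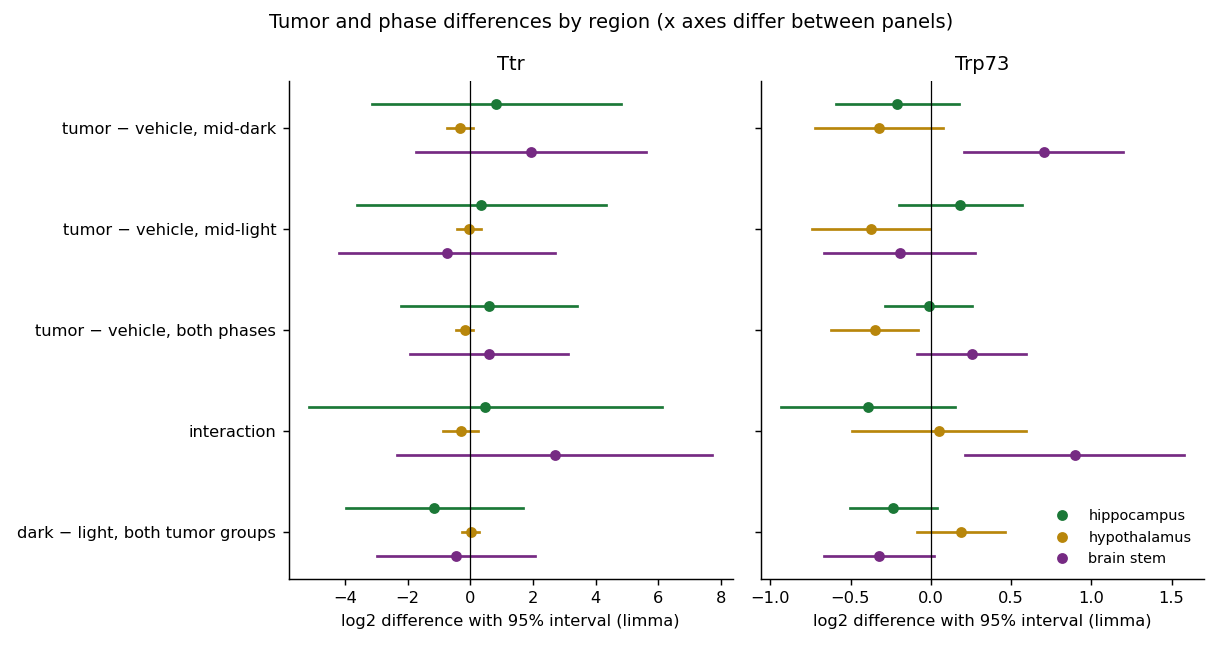
Log2 differences of Ttr (left) and Trp73 (right) between groups in each region, with 95% intervals from limma; colours mark the region and the vertical line is no difference. The intervals of Ttr reached from -3.96 to 1.67 for phase in hippocampus but only from -0.27 to 0.29 in hypothalamus, and for Trp73 the brain stem mid-dark interval, 0.21 to 1.20, lay above 0.

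Within regions, Ttr and Trp73 went together most closely in brain stem. After each group's mean was subtracted, Pearson's r was 0.84 and Spearman's rho 0.85 over the 19 samples, and among all genes Trp73 was the one most correlated with Ttr there. The slope was 0.11 log2 units of Trp73 per log2 unit of Ttr. The r was 0.82 among the vehicle injected and 0.85 among the tumor-bearing mice. Trp73 was low in this region (4.04 to 5.67), overlapping the Y-linked Uty (4.33 to 5.09) and Kdm5d (3.62 to 4.75).

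In hippocampus the separate sets of Ttr values carried much of the relation. Within the 15 samples above the gap, a split made after the values were seen, r was 0.32 and rho 0.38. Over all 20 samples, across the gap, r was 0.70 and rho 0.52. Without mouse 7, the lowest in both genes, it was 0.54. On the values as deposited, r was 0.46 in the 15 samples and 0.65 in all 20. The other 4 samples with low Ttr had Trp73 between 6.61 and 6.69, among the values of the samples with high Ttr. The slope over all samples was 0.066 per log2 unit of Ttr.

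In hypothalamus, where neither gene varied much, r was 0.43 and rho 0.31 over 17 samples. The r was 0.074 without mouse 1, which had the lowest value of both genes, and 0.65 without mouse 19. All 56 samples share 1 quantile normalization.

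**Figure D3:**
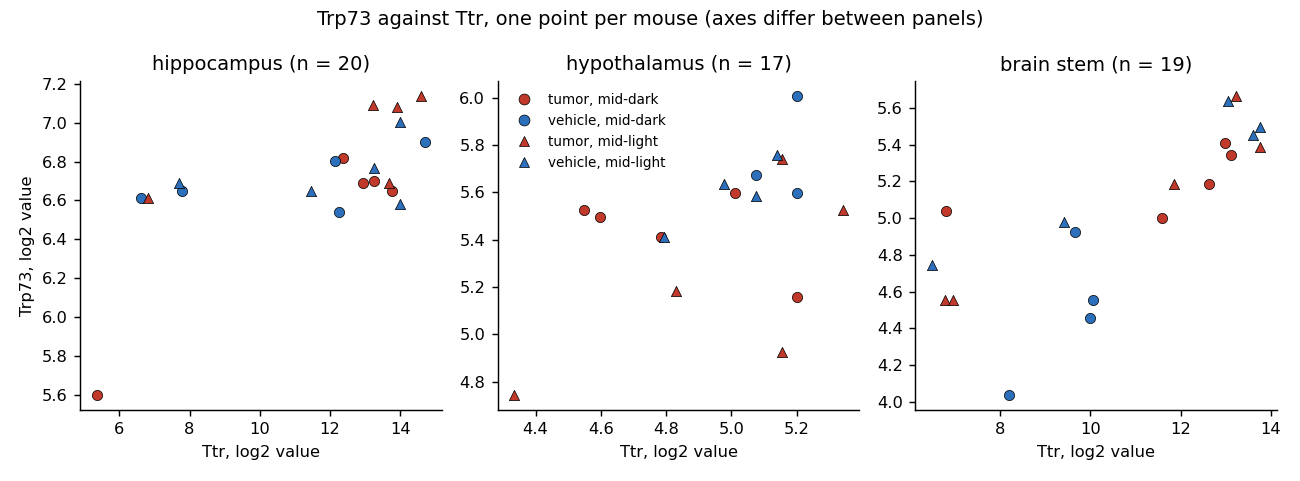
Trp73 against Ttr (log2 normalized values as deposited) in hippocampus (n = 20), hypothalamus (n = 17) and brain stem (n = 19), 1 point per mouse, coloured by tumor status and shaped by phase. In brain stem the points climb across the whole range of Ttr, in hippocampus 15 samples lie at 11.46 or above and mouse 7 alone at the lower left, and the hypothalamus panel spans only 4.33 to 5.34 of Ttr.

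Among all genes, Cdkn1c had the highest mean r with Ttr over the regions (0.70), followed by Trp73 (0.65) and Spint1 (0.57). Cdkn1c encodes p57, an inhibitor of cyclin-dependent kinases that is also imprinted, and Spint1 an inhibitor of serine proteases found on epithelial cells. The r of Cdkn1c with Ttr was 0.94 in hippocampus, 0.82 in brain stem and 0.36 in hypothalamus. In the 5 hippocampus samples of low Ttr, Cdkn1c was at 7.31, 6.79, 7.23, 7.22 and 7.57 (mice 7, 13, 12, 28 and 6), and in the other 15 it ran from 8.03 to 9.61. Cdkn1c thus followed the same sets of samples, without overlap, while Trp73 did not. Spint1 had an r of 0.61 in hippocampus, 0.33 in brain stem and 0.78 in hypothalamus. In hypothalamus Spint1 was low (1.87 to 5.36), overlapping the Y-linked Uty there (3.30 to 4.52).

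The remaining genes most correlated with Ttr were so in 1 region each. In hippocampus they were Pla2g5 (0.86), a secreted phospholipase, and Gsn (0.84), the actin-severing protein gelsolin. Pla2g5 had an r of -0.22 in hypothalamus and 0.57 in brain stem, and Gsn 0.20 and -0.02. In hypothalamus they were Cd14 (0.79), a receptor for bacterial lipopolysaccharide on myeloid cells, and Kat2a (0.77), a histone acetyltransferase, with an r of -0.50 and -0.22 in hippocampus. In brain stem it was Esam (0.71), an adhesion molecule of endothelial cells, with -0.27 in hippocampus and -0.49 in hypothalamus.

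With Trp73, the highest mean r belonged to Ttr (0.65), then Cflar (0.51), an inhibitor of caspase-8, and Sox9 (0.45), a transcription factor of astrocytes and neural stem cells. Cflar was first in hippocampus (0.82), ahead of Tmem37 (0.74), a transmembrane protein, and of Ttr. In hypothalamus the leading genes were Hat1 (0.72), a histone acetyltransferase, Pnoc (0.68), the precursor of nociceptin, and Siglecf (0.68), a sialic acid receptor of myeloid cells, and all 3 had an r between -0.22 and 0.17 in hippocampus and brain stem. Siglecf was low in hypothalamus (3.35 to 4.80), overlapping Uty there (3.30 to 4.52). In brain stem Ttr was followed by Esam (0.66) and Cdkn1c (0.65).

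**Figure D4:**
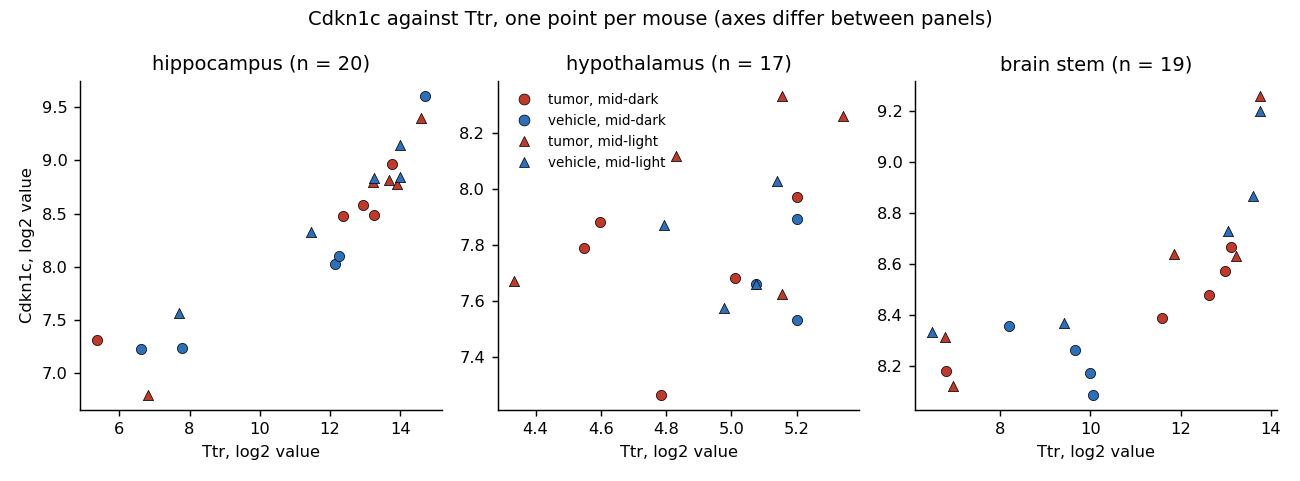
Cdkn1c against Ttr (log2 normalized values) by region, 1 point per mouse, coloured by tumor status and shaped by phase. In hippocampus the 5 samples with Ttr at 7.78 or below had Cdkn1c between 6.79 and 7.57 and the other 15 between 8.03 and 9.61, in brain stem Cdkn1c was highest where Ttr was highest, and in hypothalamus no such order is seen.

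Several lists of genes of related function or cell type were set beside the pair. Medians of their r with Ttr are given in the order hippocampus, hypothalamus, brain stem, and over all genes these were -0.09, -0.03 and -0.03. The other 4 genes that choroid plexus is known to express, Cp (the copper protein ceruloplasmin), Vegfa, Igf2r and Slc2a1 (the glucose transporter GLUT1), which many other brain cells express too, had medians of 0.14, 0.28 and -0.18. Of 3 measured border macrophage genes, Cd163, Dab2 and Siglec1, the median was 0.15, 0.25 and -0.15. Between regions, 3 of the 4 choroid plexus genes were lower and 0 higher in hippocampus than in hypothalamus, while Ttr was higher in hippocampus. That comparison called 71.7% of all genes, 233 higher and 319 lower. In brain stem against hypothalamus 3 of the 4 were higher and 1 lower, with 66.5% of all genes called, 234 higher and 278 lower.

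The r of the 8 endothelial genes with Ttr had medians of opposite sign in 2 regions: none of the 8 had an r above 0 in hypothalamus (median -0.47), while 6 of 8 did in brain stem (median 0.48). In hippocampus their median was -0.08. Over all genes 47.1% had an r above 0 in hypothalamus and 45.6% in brain stem. The fibroblast and meningeal genes, a list that holds Cdkn1c, had medians of 0.31, 0.21 and -0.02. The 5 astrocyte genes had medians of -0.07, -0.23 and -0.10, and the 5 neuron genes -0.15, 0.14 and 0.03.

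Partners and targets of the p53 family were also set beside Trp73. The 12 genes of this list, among them Trp53 itself, its inhibitor Mdm2, the cell cycle inhibitor Cdkn1a and the apoptosis genes Bax, Bbc3 and Fas, had a median r with Trp73 of -0.18 in hippocampus, -0.16 in brain stem and 0.01 in hypothalamus. Their r was above 0 for 2 of the 12 in hippocampus, 4 in brain stem and 6 in hypothalamus, where 44.9%, 46.9% and 52.1% of all genes were. The highest were Tnfrsf10b, a death receptor, in hippocampus (0.62) and brain stem (0.56), and Mdm2 in hypothalamus (0.51). Between regions they went both ways: 5 were higher and 4 lower in hippocampus than in hypothalamus. That comparison called 71.7% of all genes, 233 higher and 319 lower, so the list lay near the background. Bax, for example, was higher in hippocampus by 0.35 (SE 0.030, adjusted p = 4.19e-15, limma) and Cdkn1a was lower by 0.66, a difference of -0.66 (SE 0.054, adjusted p = 2.07e-15, limma).

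Of the 45 list genes measured, 1 passed a tumor or interaction contrast in any region. That was Fas, a death receptor, which was higher in the hippocampus of tumor-bearing mice by 0.46 over both phases (SE 0.085, adjusted p = 0.00763, limma). That contrast called 0.52% of all genes. Between phases 2 of the 45 list genes passed in hippocampus, 3 in brain stem and 1 in hypothalamus, where 5.59%, 4.94% and 2.34% of all genes passed, so the list genes lay near the background. Cdkn1a was higher at mid-dark in brain stem (0.52, adjusted p = 0.000609) and hippocampus (0.31, adjusted p = 0.0248), and so was Cldn5, a tight junction protein of endothelium (0.43, adjusted p = 0.00635, and 0.29, adjusted p = 0.0154, all limma). Col6a3, a collagen, was lower at mid-dark in brain stem (-0.35, adjusted p = 0.00501), and Trp53 was lower in hypothalamus (-0.22, adjusted p = 0.032, limma). None of the 4 choroid plexus genes of the lists passed either kind of contrast.

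Of the 5 mice with low Ttr in hippocampus, 4 were also at 10.05 or below in brain stem. Mice 6, 12, 13 and 28 had 7.71, 7.78, 6.82 and 6.62 in hippocampus and 6.49, 10.05, 6.96 and 8.21 in brain stem. Mouse 7 had 5.36 in hippocampus and 11.59 in brain stem. Mice 2, 4, 9, 23 and 32 were at 10.05 or below in brain stem only: mouse 9, for example, had 14.58 in hippocampus and 6.78 in brain stem, and mouse 23 had 13.77 and 6.81. Over 19 mice, with group means subtracted, r was 0.32 (permutation p = 0.19) and rho 0.0044.

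The same comparison was made for both genes over the 3 pairs of regions, 6 relations in all, and the smallest adjusted p was 0.502 for Pearson's r and 0.308 for Spearman's rho (permutation tests, two-sided). The largest was between Trp73 in brain stem and in hypothalamus, over 16 mice, with an r of -0.42 (permutation p = 0.103) and a rho of -0.50 (permutation p = 0.0513). Without the 2 mice farthest from the median it was -0.58. For Ttr the r between hippocampus and hypothalamus was -0.02 over 17 mice, and between brain stem and hypothalamus -0.26 over 16.

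**Figure D5:**
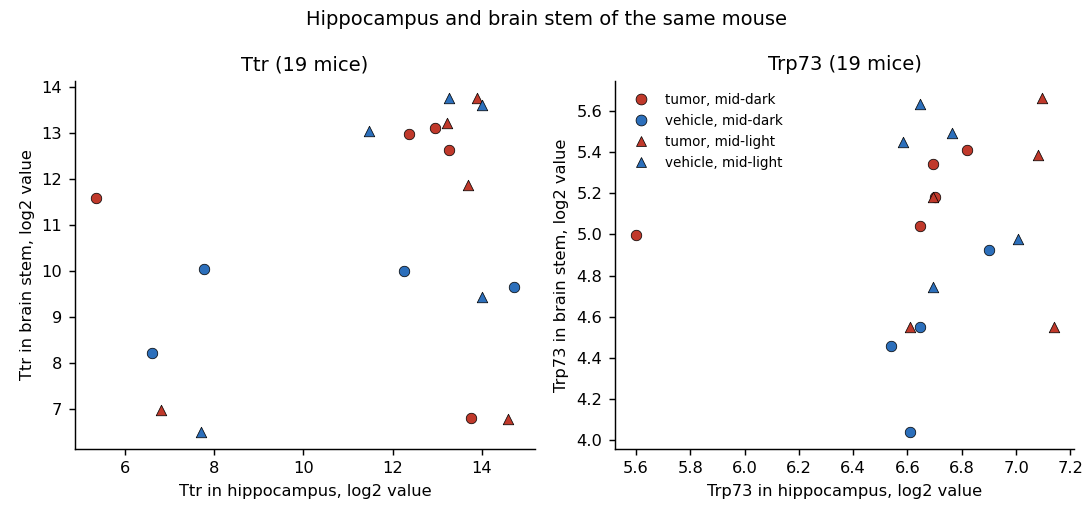
Ttr (left) and Trp73 (right) in the brain stem against the hippocampus of the same mouse (log2 normalized values, 19 mice), coloured by tumor status and shaped by phase. For Ttr, mice 9 and 23 sit at the lower right with 14.58 and 13.77 in hippocampus and 6.78 and 6.81 in brain stem, and mouse 7 at the left with 5.36 and 11.59.

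RNA concentration, the ratio of absorbance at 260 and 280 nm and spleen mass, as recorded for each sample or mouse, were compared with both genes in each region, 18 relations in all. None passed adjustment. The smallest unadjusted p-values were for spleen mass in brain stem, where r was -0.52 with Trp73 (permutation p = 0.0227) and -0.48 with Ttr (permutation p = 0.0358), each with an adjusted p of 0.322, over 19 mice. Without the 2 mice farthest in spleen mass these were -0.44 and -0.45. Of the RNA measures, the largest r in size was -0.29, between RNA concentration and Trp73 in hippocampus (permutation p = 0.212), and it was 0.15 without the 2 farthest samples. For Ttr it was 0.16 there and 0.42 without those samples. All these relations used values with group means subtracted, so they do not bear on differences between groups.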

How the data were processed

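Total RNA from 3 brain regions of 20 mice was hybridised to the nanoString nCounter Mouse Neuroinflammation Panel. The authors subtracted the negative control background in nSolver, normalized to positive controls and to the geometric mean of the codeset, and then quantile normalized the values in Partek. The deposited log2 values, on which all results here rest, give every sample nearly the same distribution (sample medians 8.07 to 8.09), so a value is set by a gene's rank within its sample. Counts before normalization were not used here, and the depth behind each value is unknown. Of 60 samples 4 had no values, and per the labels outliers by raw data were left out.

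Groups were taken from the labels. In each region limma 3.58.1 (R 4.3.3) fitted a mean for each of the 4 groups to all genes, and p-values were adjusted by Benjamini-Hochberg over all genes tested (769 in hippocampus and brain stem, where 1 gene did not vary, and 770 in hypothalamus). Regions were compared in a limma model with the mouse as a random block (consensus correlation 0.136), since the 3 regions of a mouse share its number. Correlations used values with group means subtracted, and permutation tests used 100000 permutations in Python 3.11.15 with scipy 1.17.1. The limma steps were tested on simulated data. The members, lists and tests were chosen with earlier results of these data known. Genes named besides the pair were the 3 with the highest r with each member in each region and over the regions, and the genes of the lists, of which 45 of 46 were measured. Some results of these lists are not reported here. The sample medians, the markers of the dissection and the genes that female mice lack served as checks. Alternatives left out each mouse in turn, dropped genes with a mean under 5, subtracted sample medians, used unmoderated p-values or rank correlations, and treated the mouse in other ways. Trp73 windows came from RefSeq tables of build GRCm38.p6.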

Additional observations from a re-analysis of the deposited data

Results flagged for a closer look

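In groups of 4 or 5 mice, 4 of 22 combinations of gene, region and group held 1 mouse far from the others. Chance gives about 1 in 20 in a gene not chosen for its spread, but these genes were, and both are read in the same mice, so the count is a description and no test. Each was the lowest of 5 tumor-bearing mice. For Ttr these were mouse 7 in the hippocampus at mid-dark (5.36, its gap to the next mouse being 0.83 of the group's range), mouse 13 in the hippocampus at mid-light (6.82, gap 0.83) and mouse 23 in the brain stem at mid-dark (6.81, gap 0.76). For Trp73 it was mouse 7 in the hippocampus at mid-dark (5.60, gap 0.86). Vehicle injected groups held low Ttr values too, but with 2 low mice or with values between, as in mice 12 and 28 in hippocampus.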

How the results depend on the processing

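The 30 tumor and phase results were recomputed 687 times: 657 values kept their sign and side of the threshold, 0 passed it (lowest adjusted p 0.172, limma), and 30 changed sign, all when 1 mouse was left out. The leave-one-out ranges of the results that changed sign were, for Ttr in hippocampus, -0.19 to 2.38 for tumor at mid-dark, -0.74 to 1.76 for tumor at mid-light and -0.92 to 2.03 for the interaction. For Ttr in brain stem they were -1.94 to 0.19 for tumor at mid-light and -1.04 to 0.13 for phase. For Ttr in hypothalamus they were -0.13 to 0.12 for tumor at mid-light and -0.065 to 0.061 for phase. For Trp73 they were -0.29 to 0.015 for tumor at mid-dark and -0.053 to 0.099 for tumor over both phases in hippocampus, and -0.069 to 0.18 for the interaction in hypothalamus. The cause was not tested. All 156 recomputed region values kept their call. With no replicate block for the mouse, for example, Ttr differed by 6.70 between hippocampus and hypothalamus.

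The correlation of Ttr and Trp73 in brain stem stayed between 0.75 and 0.89. In hippocampus (0.70) it was 0.52 as Spearman's rho and 0.53 without the 2 samples farthest from the median of Ttr. It was 0.46 in vehicle injected and 0.85 in tumor-bearing mice. The 5 tumor-bearing mice at mid-dark had an r of 0.96 but a rho of 0.1, and mouse 7 was lowest in both genes there. With 1 mouse left out the correlation was 0.54 to 0.74. In the 15 samples above the gap, an alternative chosen after seeing the data, it was 0.32. In hypothalamus (0.43) the correlation was 0.31 as Spearman's rho, 0.14 without the 2 farthest samples and 0.63 in vehicle injected mice. With 1 mouse left out it was 0.074 to 0.65. Within single groups r was -0.59 in tumor-bearing mice at mid-dark (n = 5) and 0.71 at mid-light (n = 5). In vehicle injected mice it was 0.34 at mid-dark (n = 3) and 0.91 at mid-light (n = 4). The filter on genes with a mean under 5 gives no value for Ttr in hypothalamus, whose mean is 4.97. Groups of 3 to 5 mice and unknown counts limit every group comparison.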
